A study of Rattus norvegicus with 8 samples.

Results

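The genes described here encode the nuclear subunits of the mitochondrial respiratory chain, the machinery with which a hepatocyte makes most of its ATP. They were picked by a rule on gene names, chosen with earlier results of these data known. The rule took every measured gene whose symbol begins with Ndufa, Ndufb, Ndufc, Ndufs, Ndufv, Uqcr, Sdha, Sdhb, Sdhc, Sdhd, Cox4 to Cox8 or Atp5. It also named Cyc1 and Cycs and left out the Ndufaf assembly factors. The rule found 81 of the 14511 genes with a probe set of their own. In 8 liver RNA samples, profiled on Affymetrix Rat Gene 1.0 ST arrays, none of the 81 passed the test between any of the groups compared. Few of all 14511 genes passed either, between 0.0345% and 2.23% depending on the comparison.

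All samples were livers of female Wistar rats, with 2 arrays in each of 4 groups. One group had undergone partial hepatectomy (PH), the surgical removal of the lateral lobes, and was sampled 8 hours after surgery, when the remaining liver is preparing to regrow. The other groups were unoperated rats of 2 weeks (suckling age), 4 weeks (around weaning) and 12 weeks (young adults). No age is given for the operated rats and no sham-operated rats are among these samples, so that in the comparison of PH with 12-week livers the surgery, the age and the hour of sampling cannot be told apart. The titles number the arrays of each group as biological replicates 1 and 2, whereas the design text speaks of duplicate processing, so the p-values measure the spread between arrays that may be technical. The arrays of each group are called its first and second array by that number.

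The respiratory chain passes electrons from NADH and succinate to oxygen. Complex I (NADH dehydrogenase) and complex II (succinate dehydrogenase) hand electrons to ubiquinone, complex III passes them to the small carrier cytochrome c, and complex IV (cytochrome c oxidase) gives them to oxygen. Complexes I, III and IV pump protons, and complex V (ATP synthase) uses the returning protons to make ATP. A few core subunits of complexes I, III, IV and V are made from mitochondrial DNA, while the rest, including all of complex II, come from nuclear genes. Liver regrowth and the change from milk to solid food both alter the energy demands of the hepatocyte, and the transcription factors NRF1, GABPA (an ETS factor) and YY1 are known regulators of many of these nuclear genes.

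Of the 81 genes, 6 encode catalytic core subunits of complex I and 26 its accessory subunits, 4 encode complex II, 7 complex III, 10 complex IV as the liver builds it, 5 complex IV isoforms of other tissues, 15 complex V, and 1 cytochrome c. The remaining members were Cox7a2l, a supercomplex factor, Atp5if1, the inhibitor of ATP synthase, 3 complex II assembly factors caught by the prefix Sdha (Sdhaf1, Sdhaf2 and Sdhaf3), and 2 pseudogenes (Ndufs6-ps1 and Cox6c-ps1). Probe sets of pseudogenes may also take up RNA of the parent gene, which was not tested. Several subunits were not analysed here, among them Ndufs6, Ndufa13, Cyc1, Uqcr10, Cox6b1 and Cox7a1. The 13 mitochondrially encoded subunits were likewise not analysed.

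The promoters of 71 members were in the RefSeq table, as 300 bases around the start of each gene, mostly upstream of it, in the build GRCr8. The following 5 are shown because the results below turn on these genes: Cycs and Ndufa5 had the largest differences after surgery, Atp5if1 and Ndufs4 those with age, and Cox4i1 is the regulatory subunit with which cytochrome c oxidase is built in liver. They lie at chr4:80984718-80985017 (minus strand) for Cycs, chr4:53971186-53971485 (minus strand) for Ndufa5, chr5:150026628-150026927 (minus strand) for Atp5if1, chr2:47794865-47795164 (minus strand) for Ndufs4 and chr19:65630133-65630432 (plus strand) for Cox4i1, and are printed 5′ to 3′ in the direction of the gene. Capitals mark matches, on either strand, to GCGC, any 2 bases and GCGC again (the split NRF1 motif), to GCATGCGC (the NRF1 core), to CCGGAAG (ETS factors) and to AAGATGGC (YY1).
Cycs: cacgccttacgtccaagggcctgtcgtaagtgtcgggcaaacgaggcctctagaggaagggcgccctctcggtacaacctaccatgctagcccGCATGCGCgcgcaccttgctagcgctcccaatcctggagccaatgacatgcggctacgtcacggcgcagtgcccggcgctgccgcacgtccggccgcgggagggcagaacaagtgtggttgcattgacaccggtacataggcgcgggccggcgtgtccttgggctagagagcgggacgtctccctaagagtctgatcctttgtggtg
Ndufa5: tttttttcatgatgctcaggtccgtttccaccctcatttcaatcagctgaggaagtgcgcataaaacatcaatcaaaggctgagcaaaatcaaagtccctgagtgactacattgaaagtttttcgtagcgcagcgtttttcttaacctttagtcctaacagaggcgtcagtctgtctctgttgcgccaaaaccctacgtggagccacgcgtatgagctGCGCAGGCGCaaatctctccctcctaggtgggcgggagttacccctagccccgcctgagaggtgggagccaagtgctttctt
Atp5if1: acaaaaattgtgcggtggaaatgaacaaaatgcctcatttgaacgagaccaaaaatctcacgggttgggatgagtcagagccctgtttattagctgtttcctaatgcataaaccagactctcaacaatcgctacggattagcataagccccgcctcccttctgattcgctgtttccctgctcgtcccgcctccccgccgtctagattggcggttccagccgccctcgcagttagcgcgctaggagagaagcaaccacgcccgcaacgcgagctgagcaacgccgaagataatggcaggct
Ndufs4: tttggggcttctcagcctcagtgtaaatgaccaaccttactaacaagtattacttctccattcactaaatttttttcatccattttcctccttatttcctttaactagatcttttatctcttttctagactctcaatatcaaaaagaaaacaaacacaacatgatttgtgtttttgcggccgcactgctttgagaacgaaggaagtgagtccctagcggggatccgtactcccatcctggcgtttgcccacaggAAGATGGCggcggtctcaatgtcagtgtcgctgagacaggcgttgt
Cox4i1: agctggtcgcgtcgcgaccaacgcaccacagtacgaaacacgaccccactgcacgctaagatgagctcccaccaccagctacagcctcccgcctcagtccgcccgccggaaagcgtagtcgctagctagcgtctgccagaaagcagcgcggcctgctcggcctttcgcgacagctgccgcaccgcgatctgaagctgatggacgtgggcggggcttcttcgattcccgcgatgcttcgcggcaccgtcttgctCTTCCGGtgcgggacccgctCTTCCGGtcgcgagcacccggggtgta
Cycs held 1 match to GCATGCGC, Ndufa5 1 to the split NRF1 motif, Ndufs4 1 to AAGATGGC and Cox4i1 2 to CCGGAAG, while the Atp5if1 window held none of these letters.

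Over the 71 member promoters, CCGGAAG was found in 23 (32.4%), against 8.75% of the 33469 promoters in the table and 12.8% of the 11883 promoters of the other measured genes. The split NRF1 motif stood in 15 member promoters (21.1%), against 5.58% of all and 9.52% of the other measured genes. For AAGATGGC the count was 13 (18.3%), against 3.17% and 4.16%, and for GCATGCGC 10 (14.1%), against 2.47% and 3.79%. The last motif was added after the Cycs promoter had been read, and a stretch GCGCATGCGC matches both NRF1 forms. At least 1 of these motifs was present in 44 of 71 member promoters (62.0%), compared with 24.7% of the other measured genes and 16.7% of all promoters. A match describes the sequence and is not evidence of binding.

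The values are log2 levels after robust multi-array averaging (RMA), so a difference of 1 is a doubling. Probe sets differ in how brightly they hybridise, so that levels of different genes were not set against each other, and differences are those of a gene across arrays. Hepatocyte markers were high on all 8 arrays, with a median of their 13 genes between 13.2 and 13.5 on every array and albumin (Alb) between 14.10 and 14.19. The arrays themselves differed: 1256 odorant, vomeronasal and trace amine receptor genes, with no known role in hepatocytes, had medians of 4.64 and 4.17 in PH livers, 4.05 and 4.06 at 2 weeks, 4.06 and 4.00 at 4 weeks and 4.74 and 3.91 at 12 weeks. The first PH and first 12-week arrays were thus the highest for these genes. The median level of the respiratory chain genes was 8.79 and 9.46 in PH livers, 9.11 and 9.59 at 2 weeks, 8.92 and 9.90 at 4 weeks and 8.81 and 9.46 at 12 weeks. The same first PH and first 12-week arrays were the lowest for these genes. In every group the second array was higher than the first, and the gap within a group was wider than any gap between group means. The part of this level in the results below was not tested beyond a fit that includes it. In whole-liver RNA, fewer cells of a type and less RNA per cell cannot be told apart.

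**Figure D1:**
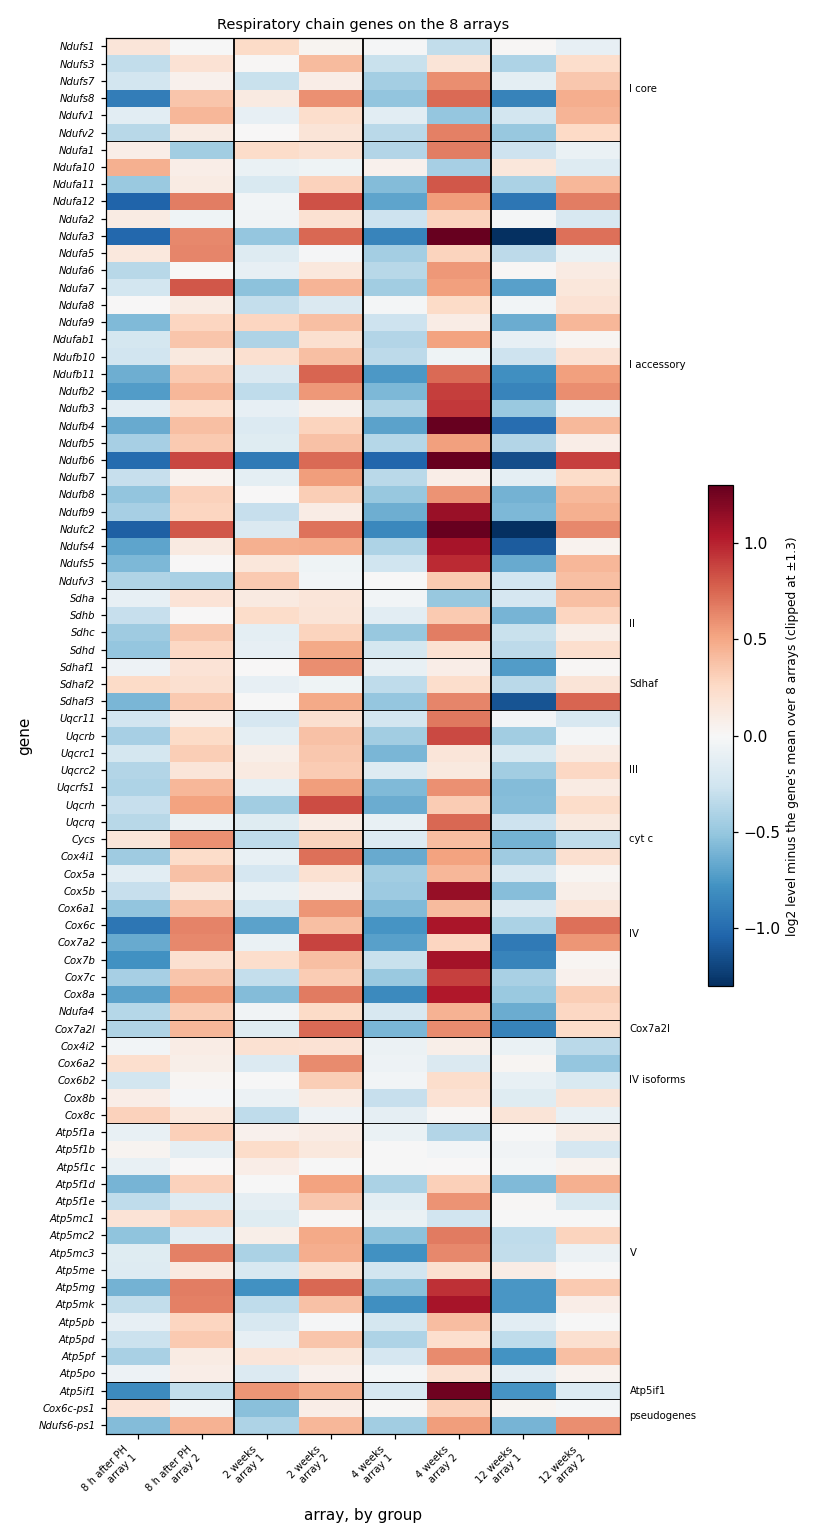
Colours show the log2 level of each of the 81 respiratory chain genes (rows, grouped by complex) on each of the 8 arrays (columns), minus the gene's mean over the 8 arrays and clipped at 1.3. The second array of each group is redder than the first for most genes, whichever group it belongs to.

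The first question was whether respiratory chain genes differed 8 hours after hepatectomy. With limma over all genes and Benjamini-Hochberg adjustment, 0 of 81 members were called at an adjusted p under 0.05, where 0.0345% of all genes (5 of 14511) were. At an unadjusted p under 0.05, 1 member, Cycs, passed, which is 1.23% of the members against 6.01% of all genes. The median difference of the members, PH minus 12 weeks, was 0.05, and 51 of 81 differences were above 0, against 50.3% of all genes. Of the 7256 genes at or above the median level, 3946 were above 0, with a median of 0.04. Individual differences of the members ran between -0.48 and 0.85. For 36 members (44.4%, against 66.1% of all genes) the 95% interval lay within 1 log2 unit of 0, so a doubling or halving lay outside the interval for those only.

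Cycs encodes somatic cytochrome c, the mobile carrier between complexes III and IV, which also starts the caspase cascade when it leaks from mitochondria. Its level was 11.07 and 11.51 in PH livers, 10.58 and 11.20 at 2 weeks, 10.73 and 11.31 at 4 weeks, and 10.30 and 10.58 at 12 weeks. Both PH arrays were above both 12-week arrays, and they overlapped the arrays of 2 and 4 weeks. The difference, PH minus 12 weeks, was 0.85 ± 0.31 (SE; 95% interval 0.13 to 1.57), with an unadjusted p of 0.02556 and an adjusted p of 0.706 by limma, so it did not pass. Without any 1 array the difference lay between 0.63 and 1.07, and over all alternative settings the adjusted p lay between 0.211 and 1. Its other probe set gave 0.88, although both may detect the same RNA and the probe sets cannot be counted as independent.

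Ndufa5 encodes an accessory subunit of the peripheral arm of complex I. It measured 8.61 and 9.10 in PH livers, 8.30 and 8.45 at 2 weeks, 8.03 and 8.76 at 4 weeks and 8.13 and 8.38 at 12 weeks. The PH arrays lay above the 12-week arrays, by 0.60 ± 0.30 (adjusted p = 0.9193). Ndufa7, another accessory subunit of complex I, measured 7.46 and 8.51 in PH livers, 7.17 and 8.14 at 2 weeks, 7.25 and 8.24 at 4 weeks and 6.99 and 7.85 at 12 weeks. The PH and 12-week arrays overlapped, with a difference of 0.56 ± 0.52 (adjusted p = 1.0 by limma).

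At the other end, Ndufv3, an accessory subunit beside the NADH-binding core, was at 8.53 and 8.50 in PH livers, 9.25 and 8.88 at 2 weeks, 8.92 and 9.26 at 4 weeks and 8.68 and 9.31 at 12 weeks. The PH and 12-week arrays did not overlap, and the difference of -0.48 ± 0.28 had an adjusted p of 0.9907. Atp5mc2, one of the genes for the rotating c-ring of ATP synthase, measured 9.94 and 10.33 in PH livers, 10.54 and 10.95 at 2 weeks, 9.93 and 11.14 at 4 weeks and 10.13 and 10.75 at 12 weeks. Cox6c, a small subunit of complex IV, measured 10.09 and 11.68 in PH livers, 10.34 and 11.42 at 2 weeks, 10.27 and 12.10 at 4 weeks and 10.62 and 11.75 at 12 weeks. For both genes the PH and 12-week arrays overlapped, with differences of -0.30 each.

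In all, the PH and 12-week arrays did not overlap for 8 members (9.88%), a share below the 29.0% of all genes. Of these, 6 were higher in PH livers, against 13.7% of all genes (Sdhaf2, Ndufa5, Cycs, Cox6a2, Cox4i2 and Atp5mc1) and 2 lower, against 15.2% (Ndufv3 and Ndufa6). By role, the median difference was 0.00 for the complex I core, -0.01 for its accessory subunits, -0.01 for complex II, 0.09 for complex III, 0.13 for complex IV and 0.05 for complex V. The median over all members turned to -0.23 without the first 12-week array and to -0.22 without the second PH array. It reached 0.36 without the first PH array and 0.35 without the second 12-week array. Within the first arrays alone it was 0.09, and within the second arrays 0.04.

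**Figure D2:**
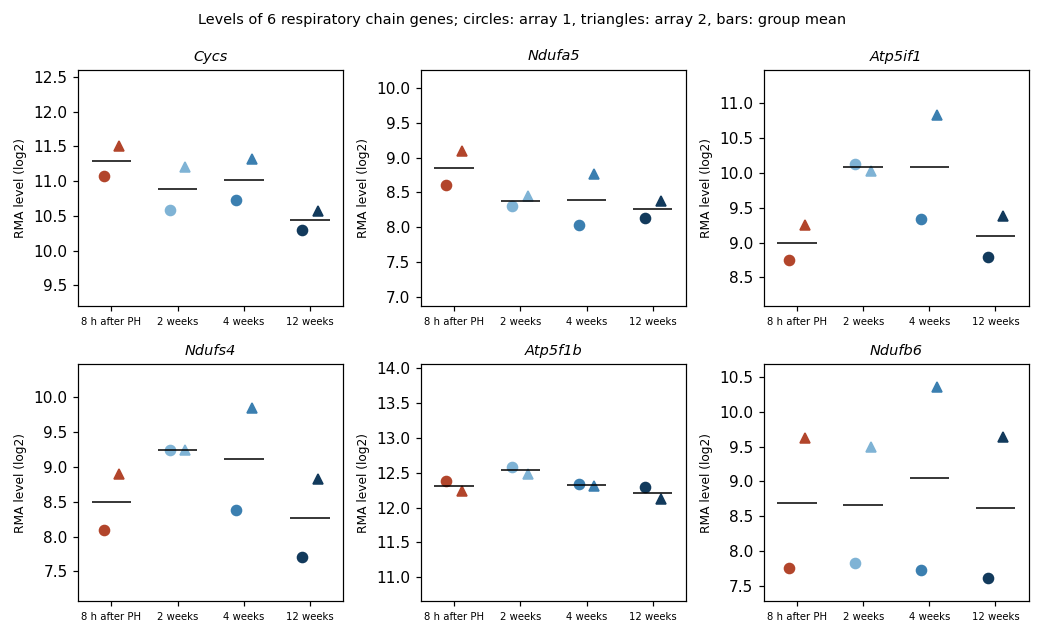
Log2 levels of 6 respiratory chain genes on each array, with circles for the first and triangles for the second array of a group and a bar at the group mean; every panel spans 3.4 log2 units. Cycs is higher on both PH arrays than on both 12-week arrays, Atp5if1 and Ndufs4 are lower at 12 than at 2 weeks, Atp5f1b varies little, and Ndufb6 is divided by array number.

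The age comparison of 12-week with 2-week livers had the most calls over all genes, 2.23% (323 of 14511), and again 0 of 81 members by limma. At an unadjusted p under 0.05 the count was also 0, against 11.1% of all genes. The median difference of the members, 12 weeks minus 2 weeks, was -0.23, with 14 of 81 above 0, where 51.6% of all genes were. Other genes of high level also leaned below 0. Of the 7256 genes at or above the median level, 2934 lay above 0, with a median of -0.09. Of 73 cytosolic ribosomal protein genes, 1 lay above 0, with a median of -0.43. The members' median changed sign in some settings. Without the first 12-week array it was 0.07, and with the level of the sensory receptor genes in the fit 0.04. Without the second 2-week array it was -0.03, without the first -0.42, and without the second 12-week array -0.49. Within the first arrays it was -0.25 and within the second -0.15.

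Atp5if1 encodes the inhibitory factor that blocks reverse rotation of ATP synthase when the proton gradient collapses. It measured 8.74 and 9.25 in PH livers, 10.13 and 10.03 at 2 weeks, 9.34 and 10.83 at 4 weeks, and 8.79 and 9.39 at 12 weeks. Both 12-week arrays were below both 2-week arrays, and the 4-week arrays lay on either side of the 2-week arrays. The difference of -0.99 ± 0.46, 12 weeks minus 2 weeks, had a 95% interval of -2.04 to 0.06 and an adjusted p of 0.4876. Without any 1 array it lay between -1.29 and -0.70. PH and 12-week livers differed by -0.09 ± 0.46 and overlapped.

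Ndufs4, an accessory subunit of complex I whose loss causes Leigh syndrome in people, measured 8.10 and 8.90 in PH livers, 9.24 and 9.25 at 2 weeks, 8.38 and 9.85 at 4 weeks and 7.70 and 8.82 at 12 weeks. The 12-week arrays were below the 2-week arrays, and 12 weeks minus 2 weeks was -0.98 ± 0.53 (adjusted p = 0.5964 by limma). The gap between the 12-week arrays was wider than that difference, and without the first of them the estimate was -0.42. Cox7b, a small nuclear subunit of complex IV, had 7.70 and 8.69 in PH livers, 8.71 and 8.87 at 2 weeks, 8.20 and 9.56 at 4 weeks and 7.63 and 8.51 at 12 weeks. Its difference of -0.72 ± 0.51 between 12 and 2 weeks was likewise not called, with an adjusted p of 0.713 by limma, and was -0.28 without the first 12-week array.

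Few members lay above 0 in this comparison. Ndufa8, an accessory subunit of complex I in the intermembrane space, measured 9.37 and 9.47 in PH livers, 9.06 and 9.18 at 2 weeks, 9.34 and 9.61 at 4 weeks and 9.32 and 9.55 at 12 weeks, with a difference between 12 and 2 weeks of 0.32 ± 0.22 (adjusted p = 0.7082). The next 2 were Cox6c, at 0.31 ± 0.74, and the pseudogene Cox6c-ps1, at 0.24 ± 0.27, and for both the arrays overlapped. Groups did not overlap for 11 members (13.6%), against 34.4% of all genes, with 1 higher at 12 weeks, Ndufa8 (against 16.8% of all genes), and 10 lower (against 17.6%): Ndufb10, Ndufs4, Ndufs1, Ndufa1, Cycs, Cox7b, Cox4i2, Atp5if1, Cox6b2 and Atp5f1b. The median difference by role, 12 weeks minus 2 weeks, was -0.20 for the complex I core, -0.24 for the accessory subunits, -0.22 for complex II, -0.31 for complex III, -0.21 for complex IV and -0.19 for complex V.

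Markers of other cells also differed in this comparison. The 9 erythroid markers measured had a median difference of -2.01, 12 weeks minus 2 weeks, with 3 called lower at 12 weeks, against 1.29% of all genes, and the 14 stellate and fibroblast markers one of -1.27, also with 3 called lower. The median erythroid level was 5.78 and 5.65 in PH livers, 8.49 and 6.97 at 2 weeks, 6.51 and 7.19 at 4 weeks and 6.20 and 5.92 at 12 weeks, and the median stellate level 7.82 and 8.23 in PH livers, 9.03 and 8.93 at 2 weeks, 8.59 and 7.93 at 4 weeks and 7.84 and 7.43 at 12 weeks. All 9 erythroid and 13 of 14 stellate differences were below 0. The 11 neutrophil markers had a median difference of -0.95, with 0 above 0 and 0 called by limma. At an unadjusted p under 0.05 there were 8, against 11.1% of all genes. Their median level was 7.23 and 5.87 at 2 weeks and 5.48 and 5.13 at 12 weeks. Within the first arrays their median difference was -1.86 and within the second -0.48. The 10 lymphocyte markers lay the other way, with a median of 0.78, 8 above 0 and 0 called by limma. Of these, 5 had an unadjusted p under 0.05, and the median difference was 0.25 within the first arrays and 0.85 within the second. Of the 13 hepatocyte markers, 1 was called, higher at 12 weeks, and their median was -0.02. The other marker lists had 0 calls by limma and 0 or 1 gene each at an unadjusted p under 0.05, with medians between -0.56 and 0.09. Marker lists differed in other comparisons too, with 0 calls by limma in the lists that follow. For 12 weeks minus 4 weeks the median was -1.265 for erythroid markers (1 of 9 above 0). It was -1.135 for stellate and fibroblast markers (1 of 14 above 0). For PH minus 12 weeks the lymphocyte median was -0.643, with 0 of 10 above 0. The part of these cells in the members' values was not tested.

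Between 12 and 4 weeks, 0 of 81 members were called by limma, where 0.11% of all genes (16) were, and 0 passed an unadjusted p under 0.05, against 4.47% of all genes. The median difference, 12 weeks minus 4 weeks, was -0.13, with 18 of 81 above 0 against 49.9% of all genes. It turned to 0.13 without the first 12-week array, to 0.24 without the second 4-week array and to 0.08 with the level of the sensory receptor genes in the fit, and was -0.56 without the first 4-week array and -0.41 without the second 12-week array. Within the first arrays it was -0.02 and within the second -0.32. Of the 7256 genes at or above the median level, 3496 lay above 0, with a median of -0.01. Of 73 cytosolic ribosomal protein genes, 12 lay above 0, with a median of -0.21. Among the members Atp5if1 was lowest, at -0.995 ± 0.46 (adjusted p = 0.9994 by limma), followed by Ndufs4 and Cox7b. At the upper end stood Ndufv1, the flavoprotein that accepts electrons from NADH, with 10.28 and 10.85 in PH livers, 10.31 and 10.65 at 2 weeks, 10.28 and 9.91 at 4 weeks and 10.18 and 10.86 at 12 weeks. Sdha, the catalytic flavoprotein of complex II and the gene of that complex named by its highest mean, measured 10.51 and 10.79 in PH livers, 10.73 and 10.77 at 2 weeks, 10.58 and 10.12 at 4 weeks and 10.39 and 11.01 at 12 weeks. Both genes overlapped between 12 and 4 weeks. Atp5f1a, the alpha subunit of the ATP synthase head, measured 12.07 and 12.48 in PH livers, 12.23 and 12.27 at 2 weeks, 12.09 and 11.79 at 4 weeks and 12.17 and 12.28 at 12 weeks, and its 12-week arrays were above those of 4 weeks. The differences, 12 weeks minus 4 weeks, were 0.42 ± 0.32 for Ndufv1, 0.35 ± 0.28 for Sdha and 0.29 ± 0.23 for Atp5f1a. Non-overlap was seen for 6 members (7.41%, against 25.1% of all genes), of which 2 were higher at 12 weeks (against 11.3%) and 4 lower (against 13.7%).

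From suckling to weaning age, 4 weeks minus 2 weeks, 0 of 81 members were called by limma and 0 passed an unadjusted p under 0.05. Over all genes 0.455% were called and 7.24% passed unadjusted. The members' median was -0.02, and 39 of 81 lay above 0, against 50.2% of all genes. The first arrays gave -0.26 and the second 0.16, so the sign depended on which arrays were set against each other. Without the second 4-week array the median was -0.47, without the first 0.39, without the first 2-week array -0.21 and without the second 0.15. Ndufb10, an accessory subunit of complex I, measured 8.14 and 8.51 in PH livers, 8.59 and 8.78 at 2 weeks, 8.05 and 8.33 at 4 weeks and 8.12 and 8.57 at 12 weeks. The 4-week arrays were below those of 2 weeks, with a difference of -0.50 ± 0.26 (adjusted p = 0.7833). Cox7a2, the liver form of a small complex IV subunit, was at 9.26 and 10.53 in PH livers, 9.83 and 10.79 at 2 weeks, 9.21 and 10.19 at 4 weeks and 8.99 and 10.49 at 12 weeks. Ndufa12, an accessory subunit of complex I, measured 7.81 and 9.52 in PH livers, 8.82 and 9.68 at 2 weeks, 8.17 and 9.40 at 4 weeks and 7.91 and 9.52 at 12 weeks. Both genes overlapped between 4 and 2 weeks. Non-overlap was seen for 9 members (11.1%, against 40.2% of all genes), with 1 higher at 4 weeks and 8 lower (against 20.1% of all genes in either direction).

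Over all 4 groups together, the moderated F test of limma called 0 of 81 members, against 1.79% of all genes, and 0 members had an unadjusted p under 0.05, against 11.0% of all genes. No member's estimate went beyond 1 log2 unit in any of the 4 comparisons, where 2.6% of all genes did for PH minus 12 weeks, 5.85% for 12 weeks minus 2 weeks, 2.2% for 12 weeks minus 4 weeks and 3.36% for 4 weeks minus 2 weeks. The 95% interval lay within 1 log2 unit for 31 members for 12 weeks minus 2 weeks, 34 for 12 weeks minus 4 weeks and 32 for 4 weeks minus 2 weeks. Those shares (38.3%, 42.0% and 39.5%) were below those of all genes (58.8%, 67.0% and 63.5%). The design therefore leaves a change of 1 log2 unit inside the interval for most of the members in each comparison.

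**Figure D3:**
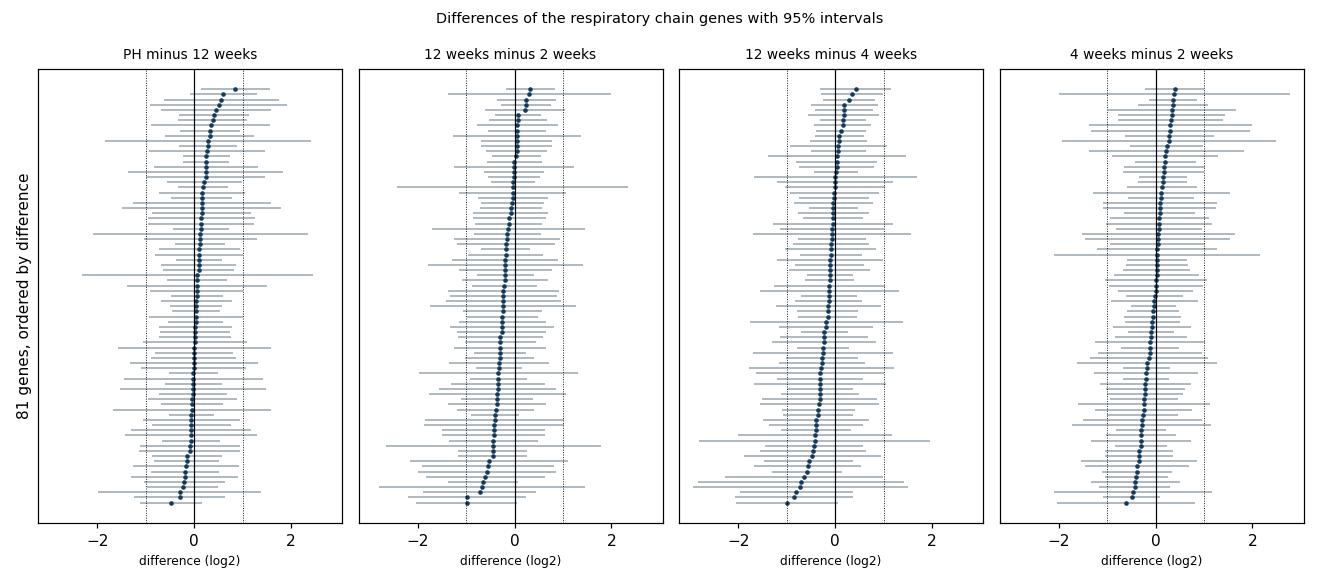
Estimated log2 differences of the 81 genes (points) with their 95% intervals (bars) in the 4 comparisons, ordered by size within each panel; dotted lines mark a doubling and a halving. All estimates lie inside the dotted lines, and the interval of 1 gene, Cycs in PH minus 12 weeks, leaves out 0.

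For each complex, the gene whose probe set had the highest mean was named by a fixed rule, which does not rank the genes by their RNA. In complex I this was Ndufb5, an accessory subunit, at 10.45 and 11.23 in PH livers, 10.73 and 11.26 at 2 weeks, 10.51 and 11.42 at 4 weeks and 10.51 and 10.97 at 12 weeks. Uqcrb, the ubiquinone-binding subunit of complex III, measured 10.81 and 11.49 in PH livers, 11.11 and 11.63 at 2 weeks, 10.79 and 12.10 at 4 weeks and 10.79 and 11.21 at 12 weeks. Each group overlapped every other for both genes. Ndufa4, once assigned to complex I and now counted with complex IV, had 11.38 and 12.07 in PH livers, 11.71 and 12.00 at 2 weeks, 11.55 and 12.21 at 4 weeks and 11.11 and 12.02 at 12 weeks. Atp5f1b, the catalytic beta subunit of ATP synthase, had 12.39 and 12.23 in PH livers, 12.59 and 12.48 at 2 weeks, 12.34 and 12.31 at 4 weeks and 12.30 and 12.13 at 12 weeks. The 2-week arrays of Atp5f1b were the highest, and 12 minus 2 weeks gave -0.32 ± 0.21 (adjusted p = 0.6818 by limma).

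There were 5 complex IV isoforms known from other tissues. Cox6a2, the form of heart and skeletal muscle, measured 6.16 and 6.02 in PH livers, 5.77 and 6.56 at 2 weeks, 5.88 and 5.76 at 4 weeks and 5.98 and 5.45 at 12 weeks. The second 2-week array was its highest. On that same array all 9 striated muscle markers measured were higher than on the first 2-week array, with Acta1, skeletal actin, at 10.74 against 6.52 to 6.93 on the other 7 arrays and Ckm, muscle creatine kinase, at 8.34, its highest value. The median of the 9 markers was 6.08 on that array and 5.11 to 5.62 on the others. The part of muscle RNA in the value of Cox6a2 was not tested. Without that array Cox6a2 differed by -0.06 between 12 and 2 weeks, compared with -0.45 with it.

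Cox4i2, the lung form of the regulatory subunit, measured 4.98 and 5.11 in PH livers, 5.21 and 5.20 at 2 weeks, 4.94 and 5.10 at 4 weeks and 4.93 and 4.66 at 12 weeks. Its difference between PH and 12 weeks was 0.25 ± 0.21. The testis form Cox6b2 lay between 5.36 and 5.92 over the 8 arrays, the muscle form Cox8b between 4.54 and 5.03 and Cox8c between 4.27 and 4.90. None of these isoforms was called in any comparison. Of the forms found in liver, Cox4i1 was at 10.00 and 10.70 in PH livers, 10.37 and 11.18 at 2 weeks, 9.81 and 10.98 at 4 weeks and 10.00 and 10.67 at 12 weeks. Cox6a1 was at 10.32 and 11.21 in PH livers, 10.60 and 11.41 at 2 weeks, 10.26 and 11.25 at 4 weeks and 10.65 and 11.00 at 12 weeks. Cox8a was at 9.78 and 11.02 in PH livers, 9.91 and 11.15 at 2 weeks, 9.65 and 11.52 at 4 weeks and 9.99 and 10.80 at 12 weeks. All 3 overlapped between PH and 12 weeks, with differences of 0.02 ± 0.47 for Cox4i1, -0.06 ± 0.44 for Cox6a1 and 0.00 ± 0.69 for Cox8a.

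**Figure D4:**
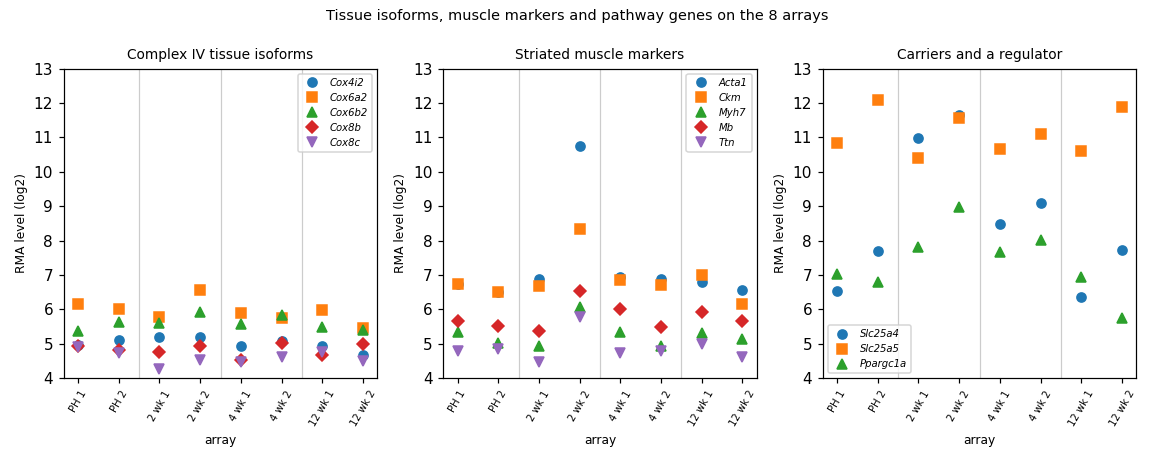
Log2 levels on each of the 8 arrays for the complex IV isoforms of other tissues (left), 5 striated muscle markers (middle) and the carriers Slc25a4 and Slc25a5 with the regulator Ppargc1a (right). Acta1 and Ckm stand out on the second 2-week array, and Slc25a4 is highest on both 2-week arrays.

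The widest spread among the members was between the arrays within each group. The second array minus the first had a median over the 81 genes of 0.54 in PH livers, 0.41 at 2 weeks, 0.91 at 4 weeks and 0.59 at 12 weeks, while the medians of all genes lay between -0.03 and -0.01. The second array was higher for 70, 71, 73 and 68 of the 81 genes in those groups. It was higher in all 4 groups for 56 members (69.1%), against 12.4% of all genes and 20.0% of the genes at or above the median level, where 72 of the members lie. This is a description of the arrays, and no test was made of it.

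By role the count of genes higher on every second array was 10 of 10 for complex IV, 6 of 7 for complex III, 21 of 26 for the accessory and 4 of 6 for the core subunits of complex I, 2 of 4 for complex II, 8 of 15 for complex V and 0 of 5 for the tissue isoforms. Ndufb6, an accessory subunit of complex I, had the widest mean gap, at 2.05: it measured 7.76 and 9.62 in PH livers, 7.83 and 9.49 at 2 weeks, 7.73 and 10.36 at 4 weeks and 7.60 and 9.64 at 12 weeks. The 4 first arrays of Ndufb6 lay between 7.60 and 7.83, below every second array. Ndufa3 (1.87), Ndufc2 (1.77) and Cox6c (1.41) followed in mean gap. Ndufs1, the large iron-sulfur core subunit of complex I, and Atp5f1b were the 2 members lower on every second array: Ndufs1 measured 11.04 and 10.88 in PH livers, 11.13 and 10.92 at 2 weeks, 10.87 and 10.56 at 4 weeks and 10.90 and 10.78 at 12 weeks.

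Some sets of genes outside the respiratory chain divided in the same way, and others did not. Of 73 cytosolic ribosomal protein genes, a set chosen after the pattern had been seen, 54 (74.0%) were higher on every second array, with group medians of 0.48, 0.41, 0.65 and 0.51 in the order PH, 2, 4 and 12 weeks. Assembly factors of the chain were higher on every second array for 16 of 32 genes, and tricarboxylic acid cycle genes for 5 of 15. The count was 1 of 13 hepatocyte markers, 1 of 9 genes of electron entry and 0 of 8 endothelial markers, of which 4 were lower on every second array. Of the 1256 sensory receptor genes, 0.876% were higher and 21.5% lower on every second array, against 12.4% and 12.9% of all genes. No scan date or batch is given that could be set beside the array number, and the cause of the gap was not tested.

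**Figure D5:**
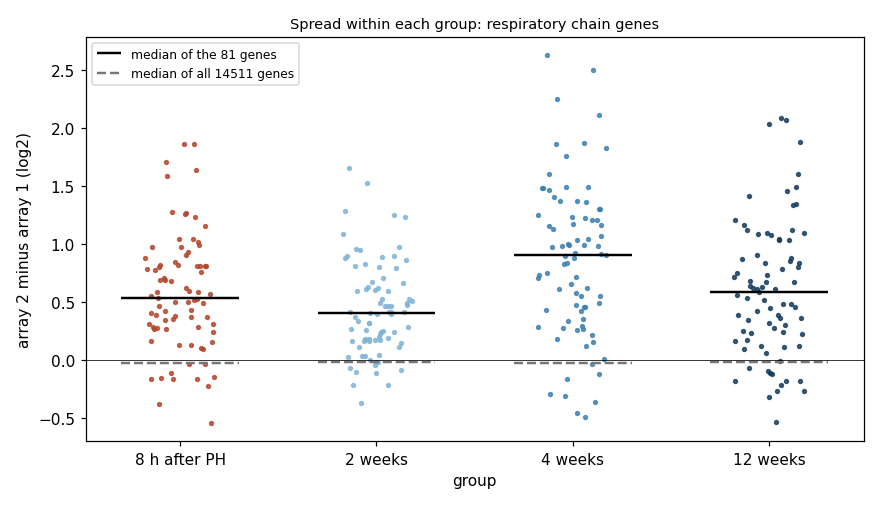
Second minus first array (log2) for each of the 81 genes (points) in the 4 groups, with the median of these genes (solid bar) and of all 14511 genes (dashed bar). Most points lie above 0 in every group, with the widest gap at 4 weeks.

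Beyond the subunits, 7 lists of genes of the same pathway had measured members. Most members of these lists were not called either. The 32 assembly factors, 13 biogenesis regulators, 17 genes of mitochondrial DNA maintenance and transcription and 12 of ubiquinone synthesis had 0 calls in each comparison by limma. The counts at an unadjusted p under 0.05 were 2, 5, 0 and 2 for 12 weeks minus 2 weeks, against 11.1% of all genes. The 5 of 13 regulators and the 2 of 12 genes of ubiquinone synthesis were larger shares than that of all genes, and the other 2 lists had smaller ones. In the same order, the counts were 1, 2, 1 and 2 for PH minus 12 weeks, against 6.01% of all genes. They were 0, 1, 0 and 0 for 12 weeks minus 4 weeks (against 4.47%) and 3, 3, 1 and 1 for 4 weeks minus 2 weeks (against 7.24%). The regulators had a larger share than all genes in each comparison. In the remaining lists 3 genes passed, all for 12 weeks minus 2 weeks. Slc25a4, the ADP/ATP exchanger of the inner membrane best known from heart and muscle, fell most. It was at 6.55 and 7.70 in PH livers, 10.99 and 11.65 at 2 weeks, 8.49 and 9.09 at 4 weeks and 6.37 and 7.71 at 12 weeks. Both 2-week arrays were above all others and both 4-week arrays lay between, and 12 weeks minus 2 weeks was -4.28 ± 0.53 (adjusted p = 0.006731).

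Muscle markers were high on the second 2-week array, and the part of muscle RNA in the value of Slc25a4 was not tested. Slc25a4 was at 10.99 on the first 2-week array. Without the second its difference was -3.95. It was called under all 19 alternative settings. Slc25a5, the exchanger more widely expressed in other tissues, measured 10.85 and 12.07 in PH livers, 10.41 and 11.55 at 2 weeks, 10.66 and 11.11 at 4 weeks and 10.59 and 11.88 at 12 weeks, and differed by 0.25 ± 0.57 between 12 and 2 weeks. It was named after its values were seen, as the counterpart of Slc25a4. In the same list of 15 carriers and uncoupling proteins, 1 gene was called and 4 passed unadjusted, against 2.23% and 11.1% of all genes.

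Idh2, the mitochondrial NADP-dependent isocitrate dehydrogenase, was at 8.31 and 8.34 in PH livers, 10.55 and 9.97 at 2 weeks, 9.46 and 9.66 at 4 weeks and 8.79 and 8.38 at 12 weeks. It fell by 1.67 ± 0.27, 12 weeks minus 2 weeks (adjusted p = 0.01845), the 1 call among 15 tricarboxylic acid cycle genes. Prodh, proline dehydrogenase, which feeds electrons into ubiquinone, moved the other way, the 1 call among 9 genes of electron entry outside complex I. It measured 9.51 and 8.72 in PH livers, 8.86 and 9.13 at 2 weeks, 11.44 and 10.52 at 4 weeks and 11.58 and 11.29 at 12 weeks. It rose by 2.44 ± 0.37 (adjusted p = 0.01516). The PH arrays lay with the 2-week arrays and below the 12-week arrays. The difference, PH minus 12 weeks, was -2.32 ± 0.37 and did not pass (adjusted p = 0.1165). It passed in 2 of 19 alternative settings, with adjusted p between 0.02838 and 0.6043. The call of Idh2 held in 16 of 19 alternative settings and was lost with the groups of the comparison alone and when either the first array at 2 weeks or the second at 12 weeks was left out (adjusted p up to 0.1285). The call of Prodh held in 15 of 19, and was lost without either 2-week array, without the first 12-week array and with array weights (adjusted p up to 0.1186).

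The transcriptional regulators of the respiratory chain were not called. Ppargc1a, the inducible coactivator PGC-1alpha, measured 7.04 and 6.80 in PH livers, 7.82 and 8.97 at 2 weeks, 7.68 and 8.02 at 4 weeks and 6.94 and 5.75 at 12 weeks. Both 12-week arrays were below all 2- and 4-week arrays and overlapped the PH arrays. The difference, 12 weeks minus 2 weeks, was -2.05 ± 0.47 (unadjusted p = 0.002111, adjusted p = 0.07587 by limma). It passed in 3 of 19 alternative settings, with adjusted p between 0.01823 and 0.3181. Gabpa, which binds ETS motifs, measured 8.69 and 8.74 in PH livers, 8.75 and 8.63 at 2 weeks, 8.23 and 8.55 at 4 weeks and 8.08 and 8.26 at 12 weeks. Its difference between PH and 12 weeks was 0.54 ± 0.22 (adjusted p = 0.774 by limma). Nrf1 measured 7.15 and 7.15 in PH livers, 7.56 and 7.50 at 2 weeks, 7.20 and 6.59 at 4 weeks and 7.09 and 7.18 at 12 weeks. Its difference between PH and 12 weeks was 0.01 ± 0.25. Esrra, the estrogen-related receptor that works with PGC-1alpha, differed by 0.29 ± 0.25 and Tfam, which packages mitochondrial DNA, by 0.34 ± 0.37 between PH and 12 weeks, both with an adjusted p of 1.0 by limma. For 12 weeks minus 2 weeks the differences were -0.52 for Gabpa, -0.39 for Nrf1, -0.23 for Esrra and -0.52 for Tfam. Of the 13 biogenesis regulators, 4 differences lay above 0 in that comparison.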

How the data were processed

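RNA from 8 rat liver samples was hybridised to Rat Gene 1.0 ST arrays. Per the submitters' processing notes, the authors used RMA and Affymetrix Expression Console (no version given), which gave the deposited log2 levels. Array medians lay between 5.98 and 6.17, and the number of arrays limits the precision. Of 29214 probe sets, 15316 had 1 gene symbol, 317 several and 13581 none in the platform annotation; 15285 matched a RefSeq gene (GRCr8). For each of 14511 genes the probe set with the highest mean was kept. Members held 94 probe sets, and 12 had several.

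One model of 4 groups was fitted to all genes with limma 3.58.1 (lmFit, eBayes; R 4.3.3), giving 4 residual and 4.27 prior degrees of freedom, with two-sided tests, Benjamini-Hochberg adjustment over all genes and calls under 0.05. The fit was tested on simulated data with independent noise for each gene. That simulation held no shift shared by same-numbered arrays, so it does not cover the pattern by array number. The members and lists were chosen with earlier results of these data known. Named members were the highest of each complex, cytochrome c, the isoform pairs, Atp5if1 and the 3 most extreme each way per comparison; pathway genes were named where called, and 5 regulators always. Of 274 entries in 8 pathway and 12 marker lists, 219 were measured.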

Additional observations from a re-analysis of the deposited data

How the results depend on the processing

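The count of 0 members called held in all 20 alternatives tried for each comparison and all 19 for the F test: other scalings, a level filter, means of probe sets, array weights, other variance models, the groups of a comparison alone, the receptor-gene covariate, a stricter threshold, the replicate block and each array left out. The stricter threshold could only give 0, because 0 members were called under 0.05. The array weights were equal for both arrays of a group, from 0.498 at 12 weeks to 1.45 in PH livers. They therefore weight whole groups and cannot judge a single array. With both arrays of the compared groups kept, the most members at an unadjusted p under 0.05 came with the replicate block. They were 3 for PH minus 12 weeks, 6 for 12 weeks minus 2 weeks, 5 for 12 weeks minus 4 weeks and 2 for 4 weeks minus 2 weeks. The share of all genes at that threshold was not counted with the block. In the main fit it was 6.01%, 11.1%, 4.47% and 7.24% in the same order. Leaving out each array in turn, the median difference of the members ranged from -0.23 to 0.36 for PH minus 12 weeks, -0.49 to 0.07 for 12 weeks minus 2 weeks, -0.56 to 0.24 for 12 weeks minus 4 weeks and -0.47 to 0.39 for 4 weeks minus 2 weeks; a lone array was then assumed to vary like the other groups. Leaving out 1 array also left its group with a first or a second array only, and the members' median was higher on second arrays. These ranges therefore include the gap by array number. The comparisons within first or second arrays were added after the data were seen. Centring arrays on their median moved the median of all genes for 12 weeks minus 2 weeks to 0.13, with the members at -0.12. Of 2300 alternative values of the 29 named members, 194 had the opposite sign to the value reported, and none was called. The array numbers are not known to pair samples: second-minus-first differences correlated between groups at 0.023 to 0.568 over 14511 genes. None was below 0, so with 2 arrays a group deviations from the group mean went with the array number, a hint from the data and not the design. Over all genes this was hardly so between 2 and 12 weeks (0.023). Over the 81 members the correlations were higher, from 0.461 between 2 and 12 weeks to 0.827 between PH and 12 weeks. With the replicate block 0 members were called, 41, 515, 30 and 129 genes were called over all genes in the 4 comparisons in the order above, against 5, 323, 16 and 66 without it, and Cycs had an adjusted p of 0.211. Signal over background was not measured. Of the 5 tissue isoforms of complex IV, Cox4i2, Cox8b and Cox8c lay between 4.27 and 5.21, near the receptor genes' array medians of 3.91 to 4.74. Cox6a2 and Cox6b2 lay between 5.36 and 6.56, above those medians.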
